A study of Mus musculus with 6 samples.

Results

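Krüppel-like factors and Nr4a receptors were followed in mouse blood stem and progenitor cells as 9 genes, Klf2, Klf3, Klf4, Klf6, Klf10, Klf13, Nr4a1, Nr4a2 and Nr4a3. Every probe set that the platform annotation maps to exactly 1 of these symbols was taken, which gave 29 of 45037 probe sets other than controls, 19 for the Krüppel-like factors and 10 for the Nr4a receptors. All 29 symbols matched the RefSeq gene table by Entrez ID.

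The cells were C57BL/6J bone marrow cells of the KSL gate (c-Kit+Sca-1+Lin-), which holds blood stem and early progenitor cells. Both groups shared a serum-free culture of 7 days, on a layer of human endothelium from umbilical vein and with 5 mouse cytokines (m5GF). One group received PBS, the vehicle, and the other mD1R, and RNA came from cells that were put through the KSL sort a second time. The labels do not spell out mD1R, and from knowledge of the study it is a recombinant form of the Notch ligand Delta-like 1, cut down to the part that binds the receptor and targeted to endothelium. Each group had 3 biological replicates, 1 Affymetrix 3′ expression array each, and the animals behind a replicate are not described in the sources used here. In these bulk samples, fewer cells that carry a transcript and less transcript per cell cannot be told apart.

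Krüppel-like factors are transcription factors that bind GC-rich and CACCC sequences through zinc fingers near the end of the protein. Klf2 and Klf4 are known for holding cells out of division and, in blood, for lymphocyte quiescence and monocyte differentiation. Nr4a receptors are orphan nuclear receptors, classed as immediate early genes because a stimulus raises their transcription within minutes, and Nr4a1 and Nr4a3 are known as restraints on stem cell proliferation and on myeloid leukaemia in mice. Transcription of Nr4a genes is known to respond to the cyclic AMP responsive factor CREB, and that of Klf2 to MEF2 factors downstream of the kinase ERK5.

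The regions just before the transcription start were read from RefSeq (GRCm38.p6) for 8 of the 9 members. Shown are 250 bases each for the 3 Nr4a genes and for Klf2 and Klf4, the Krüppel-like factors among the 9 members with the largest differences between the groups. Capitals mark matches to the CRE core TGACG, bound by CREB, on either strand, and to the MEF2 site. The stretches lie at chr15:101266596-101266845, plus strand for Nr4a1, chr2:57124004-57124253, minus strand for Nr4a2 and chr4:48045055-48045304, plus strand for Nr4a3. Klf2 lies at chr8:72318812-72319061, plus strand, and Klf4 at chr4:55532476-55532725, minus strand.
Nr4a1: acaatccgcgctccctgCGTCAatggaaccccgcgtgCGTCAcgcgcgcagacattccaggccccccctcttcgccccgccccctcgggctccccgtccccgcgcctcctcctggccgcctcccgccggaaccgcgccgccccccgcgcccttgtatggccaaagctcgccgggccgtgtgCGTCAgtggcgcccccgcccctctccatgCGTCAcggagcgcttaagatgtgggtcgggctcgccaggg
Nr4a2: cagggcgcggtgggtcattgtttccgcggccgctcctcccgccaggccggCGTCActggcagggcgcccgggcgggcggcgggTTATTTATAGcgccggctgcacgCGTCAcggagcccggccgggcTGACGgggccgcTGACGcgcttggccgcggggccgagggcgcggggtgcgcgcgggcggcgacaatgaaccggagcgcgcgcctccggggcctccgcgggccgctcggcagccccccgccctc
Nr4a3: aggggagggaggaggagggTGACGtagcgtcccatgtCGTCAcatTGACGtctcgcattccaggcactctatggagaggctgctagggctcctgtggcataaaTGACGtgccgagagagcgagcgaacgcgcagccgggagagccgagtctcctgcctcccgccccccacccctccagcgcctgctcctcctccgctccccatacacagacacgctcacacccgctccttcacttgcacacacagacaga
Klf2: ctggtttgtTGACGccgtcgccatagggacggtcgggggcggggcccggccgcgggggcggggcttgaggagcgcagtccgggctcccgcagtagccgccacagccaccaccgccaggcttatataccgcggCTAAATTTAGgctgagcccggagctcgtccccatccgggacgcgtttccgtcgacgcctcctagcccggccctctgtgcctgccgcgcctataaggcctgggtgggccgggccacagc
Klf4: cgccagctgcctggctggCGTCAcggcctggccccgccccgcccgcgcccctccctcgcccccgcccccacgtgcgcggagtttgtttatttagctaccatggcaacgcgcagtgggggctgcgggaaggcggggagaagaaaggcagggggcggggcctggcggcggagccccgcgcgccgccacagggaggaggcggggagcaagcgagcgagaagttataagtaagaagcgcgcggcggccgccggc

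Each of the 3 Nr4a regions held 4 CRE cores, whereas those of Klf2, Klf4 and Klf13 held 1 each and those of Klf3 and Klf6 held 0. Among 32841 promoter regions of this length, 17.8% held at least 1 CRE core and 0.137% held 4 or more. The full palindrome TGACGTCA, present in 1.55% of all regions, matched in 0 of the 8 members, as did the AP-1 site TGANTCA (6.75% of all regions) and the CArG box of serum response factor (1.47%). A MEF2 site matched in Klf2 and in Nr4a2, against 2.92% of all regions, and the Nr4a binding element AAAGGTCA (1.34%) matched in 0 members. The Krüppel-like factor site CCNCNCCC, whose matches can overlap, was found 2 to 10 times in each of the 8 members and at least once in 45.9% of all regions. The printed regions were between 63.6% and 80.0% G and C, against a median of 52.4% over all regions, and these matches are a description of letters, not of binding. Whether the CRE cores bear on the values below was not tested.

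The arrays share 1 scaling, with medians of log2 signal between 6.07 and 6.42. The BioB hybridisation control, relative to BioC, BioD and cre, split them into 2 sets, called spike-in batches here. The first, from -3.29 to -3.17 (log2), held mD1R replicates 1 and 2 with PBS replicate 1. The second, from -5.77 to -5.69, held mD1R replicate 3 with PBS replicates 2 and 3. The 3′ minus 5′ difference of the actin control, a measure of RNA integrity, was 0.20 to 0.27 (log2) with PBS and 0.37 to 0.46 with mD1R, while that of Gapdh overlapped between the groups. The array of mD1R replicate 3 stood apart from the other mD1R arrays in neutrophil genes, whose mean log2 signal over 11 markers was 14.50 there, 9.23 and 12.17 on mD1R replicates 1 and 2, and 14.48 to 14.74 with PBS. Kit, a defining receptor of the gate, had 9.97, 8.85 and 9.21 with PBS and 11.37, 11.13 and 9.58 with mD1R, and Ly6a, which encodes Sca-1, was not analysed here. The parts of RNA integrity, batch and cell makeup in the results below were not tested.

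With mD1R, Nr4a1, Nr4a2, Klf4, Klf3 and Klf6 each fell on at least 1 probe set, and no kept probe set of a member rose. Nr4a1 fell by 3.40 ± 0.60 (log2, SE), the most among the members, and Klf4 fell by 2.01 ± 0.33. Klf3 and Klf6 fell by under 1 on that scale. The differences of Klf2, Klf10, Klf13 and Nr4a3 did not pass. Of the 29 probe sets, 24 passed the filter on low signal, a mean log2 signal of at least 5.27. Of these 24, 8 (33.3%) were lower at a Benjamini-Hochberg adjusted p below 0.05 in limma, where 6.5% of 27022 kept probe sets were lower, and 0 were higher, against 6.13% of all. At an unadjusted p below 0.05 in limma, 15 were lower and 0 higher. Over all kept probe sets, 8048 of 27022 reached this in either direction. The groups did not overlap, with mD1R lower, in 14 of the 24 (58.3%), against 18.6% of all. The median log2 change of the 24 was -0.78, beside 0.00 over all kept probe sets. These counts rest on probe sets of only 9 genes and are not independent. The filter acts on the mean over both groups, and it removed some members that were low in both. It also removed Klf3 1458487_at and Nr4a2 1433423_at, whose PBS means, 5.30 and 5.35, lay above 5.27. Nr4a2 1450749_a_at was kept and counted with means of 6.60 with PBS and 4.67 with mD1R, the latter below the filter.

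**Figure D1:**
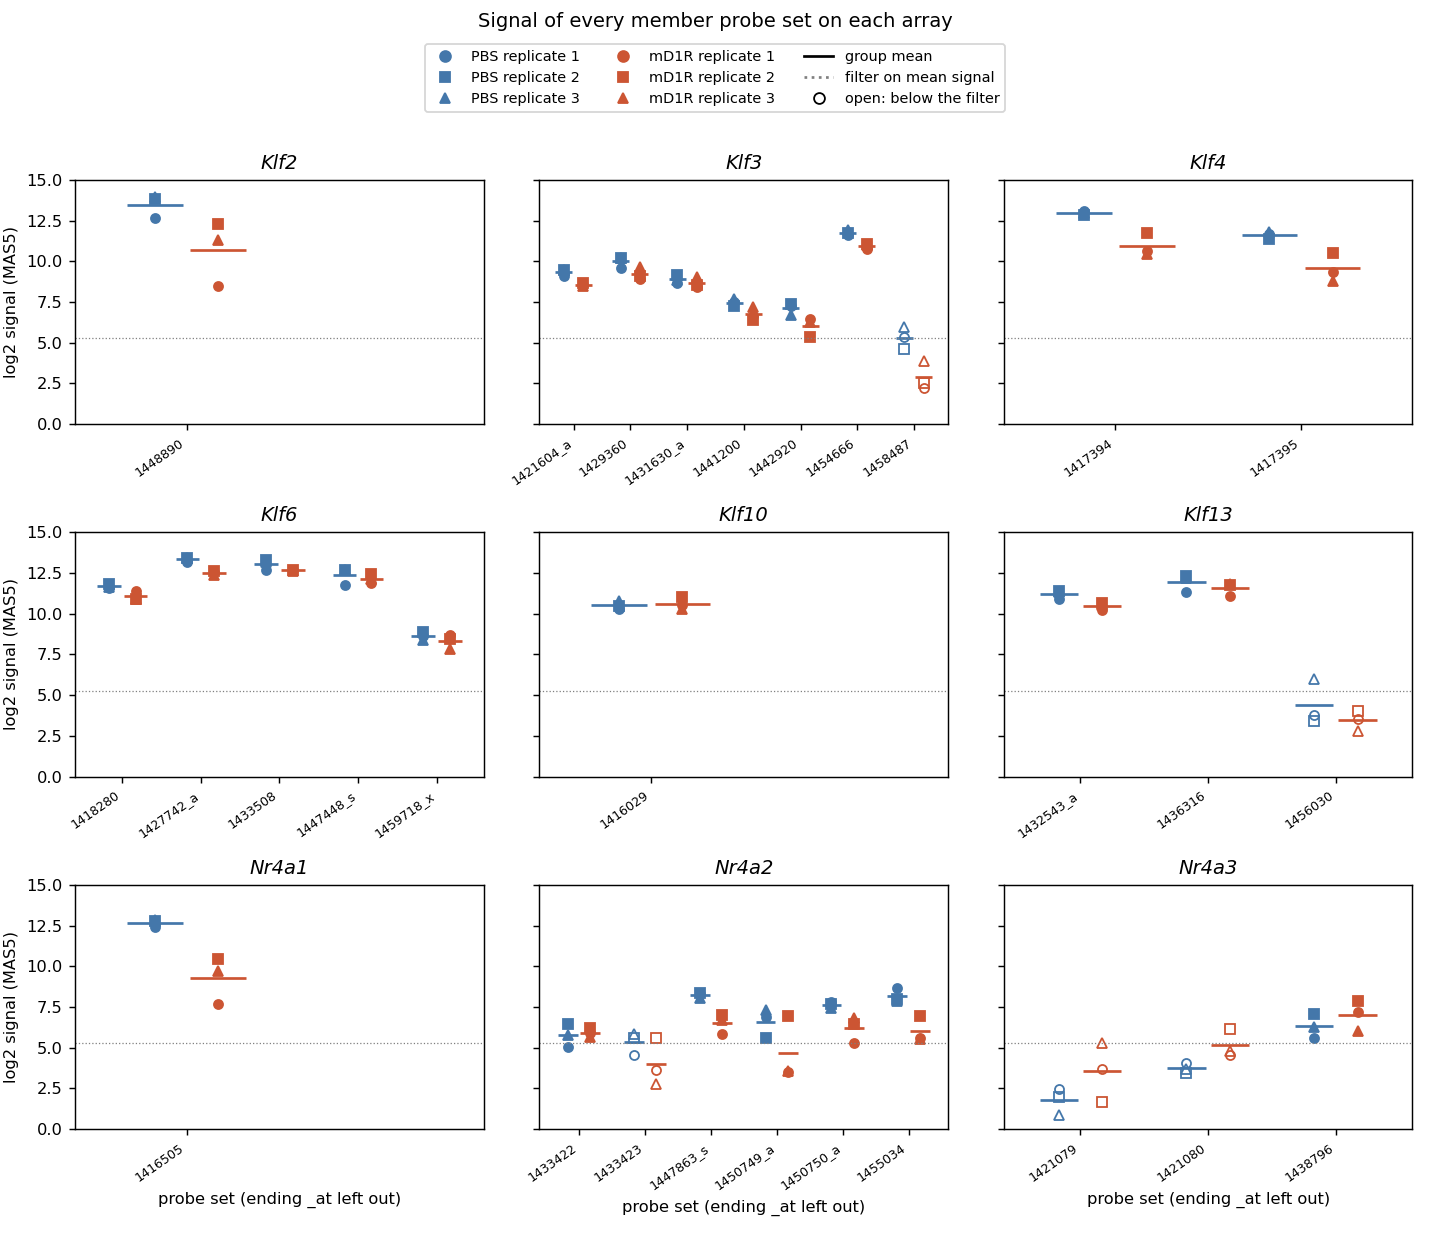
Log2 signal of all 29 probe sets on each array, 1 panel per gene, with PBS in blue, mD1R in red, a symbol for each replicate, a bar for each group mean and the filter on mean signal as a dotted line. Klf4 and Nr4a1 have all 3 mD1R arrays below all 3 PBS arrays, and open symbols mark the 5 probe sets below the filter.

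Nr4a1 encodes the receptor Nur77, a nuclear receptor that is switched on by growth and antigen receptor signals. Its only probe set, 1416505_at, gave log2 signals of 12.40, 12.79 and 12.82 on PBS replicates 1, 2 and 3 and 7.71, 10.43 and 9.70 on mD1R replicates 1, 2 and 3. All 3 mD1R arrays lay below all 3 PBS arrays, with replicate 1 lowest and a range of 2.72 among the mD1R arrays against 0.42 among the PBS arrays. The means were 12.67 ± 0.23 (SD, n = 3) with PBS and 9.28 ± 1.41 with mD1R, so that signal was 10.5-fold lower (adjusted p = 0.0159, 95% confidence interval of the log2 change -4.79 to -2.01). In the order of log2 changes it was the 109th lowest of 27022 kept probe sets. Within the spike-in batches the change was -3.34 and -3.11. The call was lost without PBS replicate 2 (adjusted p = 0.0577) and without PBS replicate 3 (0.0732), and held in the other 14 of 16 alternative settings. Without mD1R replicate 1 the change was -2.61 (adjusted p = 0.0203).

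Nr4a2 encodes Nurr1, a relative of Nr4a1 best known from dopamine neurons. Probe set 1455034_at gave 8.66, 7.99 and 7.85 on PBS replicates 1, 2 and 3 and 5.57, 6.93 and 5.55 on mD1R replicates 1, 2 and 3, and fell by 2.14 ± 0.44 (adjusted p = 0.0221). Probe set 1447863_s_at, whose ending marks probes that may match more than 1 transcript family, gave 8.26, 8.35 and 8.02 with PBS and 5.82, 6.97 and 6.71 with mD1R and fell by 1.71 ± 0.34 (adjusted p = 0.0209). In both, the groups did not overlap, and the lowest mD1R signals, 5.55 and 5.82, lay near the filter of 5.27.

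Another Nr4a2 probe set, 1450750_a_at, also had all mD1R arrays below all PBS arrays, at 7.78, 7.69 and 7.43 with PBS and 5.27, 6.48 and 6.84 with mD1R, but its difference of -1.44 ± 0.42 did not pass (adjusted p = 0.0616). It passed with 32 added before the log (-1.10, adjusted p = 0.0470), with array weights (0.0248) and without mD1R replicate 3 (0.0232). Probe set 1450749_a_at varied widely, from 3.50 to 6.94 with mD1R, and overlapped the PBS arrays (difference -1.93 ± 0.94, adjusted p = 0.215). The probe set 1433422_at disagreed with the rest, with 5.02, 6.42 and 5.80 with PBS and 5.89, 6.20 and 5.62 with mD1R and a difference of 0.16 ± 0.44 (adjusted p = 0.851). A sixth, 1433423_at, was below the filter, with 4.57, 5.62 and 5.85 with PBS and 3.61, 5.61 and 2.79 with mD1R, and overlapped (adjusted p = 0.411 with no filter). Nr4a2 thus passed on 2 of its 5 kept probe sets. Both calls were lost without any one PBS replicate (adjusted p 0.0647 to 0.0853), and that of 1455034_at also without mD1R replicate 1 (0.0522).

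Nr4a3 encodes Nor1, which shares functions with Nr4a1 in myeloid cells. Its kept probe set, 1438796_at, gave 5.58, 7.08 and 6.30 on PBS replicates 1, 2 and 3 and 7.18, 7.84 and 6.00 on mD1R replicates 1, 2 and 3. The groups overlapped, and the difference of 0.69 ± 0.55 did not pass (adjusted p = 0.447, interval -0.59 to 1.97). Within the spike-in batches it was 1.93 and -0.68, opposite in sign. Of the 2 probe sets below the filter, 1421080_at had 4.06, 3.46 and 3.71 with PBS and 4.55, 6.17 and 4.78 with mD1R, higher on every mD1R array, and 1421079_at ranged from 0.85 to 5.28 with overlapping groups. With no filter neither passed (adjusted p = 0.267 and 0.387).

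Klf4, one of the factors used to reprogramme cells to pluripotency, is known in blood for driving monocyte differentiation and for limiting division. Its probe set 1417394_at gave 13.09, 12.87 and 12.94 on PBS replicates 1, 2 and 3 and 10.64, 11.76 and 10.47 on mD1R replicates 1, 2 and 3. The second, 1417395_at, gave 11.69, 11.34 and 11.79 with PBS and 9.36, 10.52 and 8.78 with mD1R. On both, replicate 3 was the lowest of the mD1R arrays and replicate 2 the highest, and even replicate 2 lay below all PBS arrays. The means of 1417394_at were 12.96 ± 0.11 (SD, n = 3) with PBS and 10.96 ± 0.70 with mD1R, 4.02-fold lower with mD1R (adjusted p = 0.0131), and those of 1417395_at 11.61 ± 0.23 (SD, n = 3) with PBS and 9.56 ± 0.89 with mD1R, 4.15-fold lower (adjusted p = 0.0201). Within the spike-in batches the changes were -1.89 and -2.44 for the first and -1.75 and -2.78 for the second probe set. The call of 1417394_at was lost without PBS replicates 2 and 3 (adjusted p = 0.0518 and 0.0679), and that of 1417395_at without any one PBS replicate (0.0597 to 0.0902).

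Klf2, which keeps naive lymphocytes quiescent and in circulation, had 1 probe set, 1448890_at, with 12.65, 13.84 and 13.93 on PBS replicates 1, 2 and 3 and 8.51, 12.32 and 11.33 on mD1R replicates 1, 2 and 3. Every mD1R array lay below every PBS array, but replicate 1 was far below the other two and the mD1R range was 3.81. The mean signal was 13.47 ± 0.72 (SD, n = 3) with PBS and 10.72 ± 1.98 with mD1R. The log2 change was -2.75 ± 0.87, a 6.75-fold lower signal. This did not pass (adjusted p = 0.0763, unadjusted p = 0.0134 in limma, interval -4.77 to -0.74), although it was the 235th lowest change of all kept probe sets. It was -1.65 without mD1R replicate 1 (adjusted p = 0.0656) and passed with array weights (-2.62, adjusted p = 0.0244). Without mD1R replicate 2 it was -3.55 (adjusted p = 0.0672). Within the spike-in batches it was -2.24 and -2.55.

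**Figure D2:**
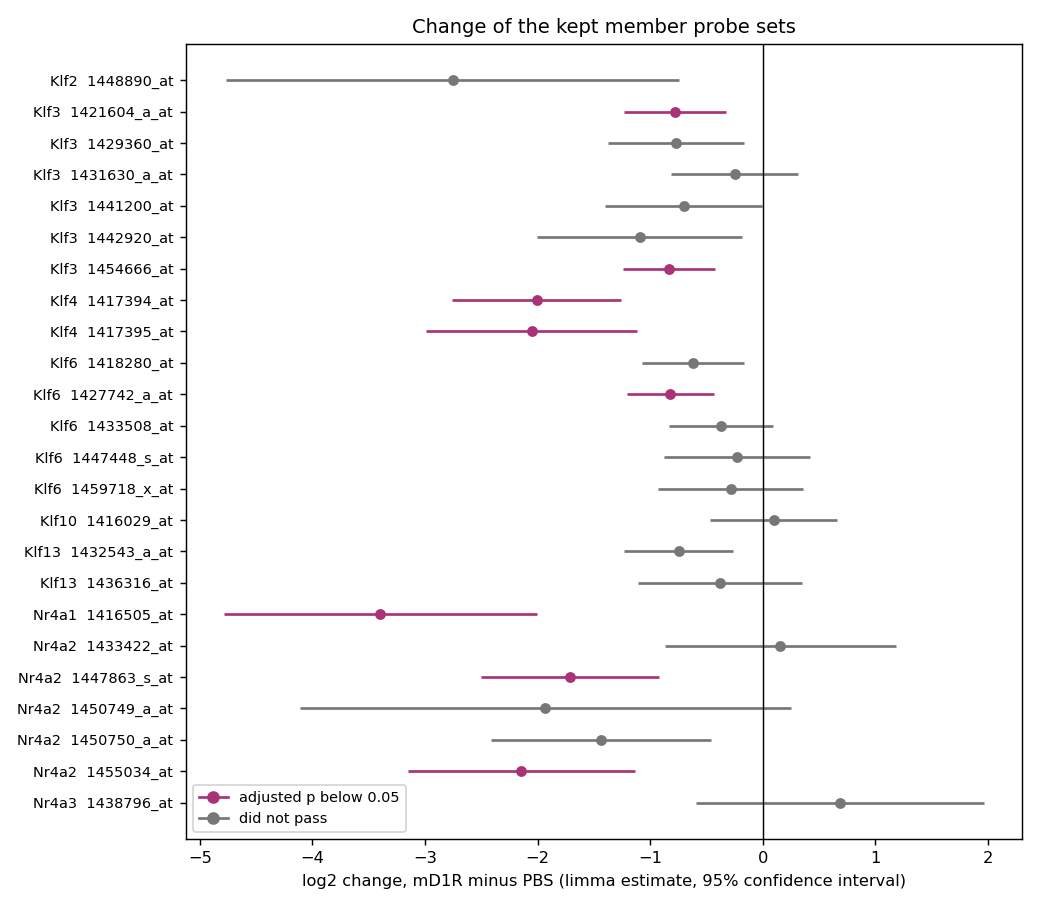
Log2 change (mD1R minus PBS) of the 24 kept probe sets as limma estimates with 95% confidence intervals. The 8 probe sets past adjusted p 0.05 belong to Klf3, Klf4, Klf6, Nr4a1 and Nr4a2, and all lie to the left of 0.

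Klf3, a repressor that recruits the co-repressor CtBP and acts in erythroid and B cell development, had 6 kept probe sets. The brightest, 1454666_at, gave 11.60, 11.76 and 11.91 on PBS replicates 1, 2 and 3 and 10.72, 11.07 and 10.97 on mD1R replicates 1, 2 and 3, with no overlap, and fell by 0.83 ± 0.18 (adjusted p = 0.0247). Probe set 1421604_a_at gave 9.11, 9.44 and 9.45 with PBS and 8.56, 8.64 and 8.46 with mD1R and fell by 0.78 ± 0.20 (adjusted p = 0.0401), the largest adjusted p among the members that passed. The other 4 kept probe sets had differences from -1.09 to -0.25 and did not pass (adjusted p = 0.0924 to 0.535). In 2 of these 4 the groups did not overlap, and another, 1429360_at, passed with array weights (adjusted p = 0.0140) and without mD1R replicate 3 (0.0283). The seventh, 1458487_at, was below the filter with 5.36, 4.61 and 5.94 with PBS and 2.23, 2.53 and 3.87 with mD1R, also without overlap (adjusted p = 0.0910 with no filter). The call of 1454666_at was lost without PBS replicate 1, 2 or 3 (adjusted p = 0.0510, 0.10 and 0.121) and without mD1R replicate 2 (0.0639), and held in 10 of 16 settings. That of 1421604_a_at was lost without any array but mD1R replicate 3 (adjusted p = 0.0561 to 0.168) and held in 6 of 16. Its change and that of 1454666_at stayed between -0.91 and -0.72 in all of them.

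Klf6, a broadly expressed factor induced by injury and known as a growth suppressor, had 5 kept probe sets. Only 1427742_a_at passed, with 13.18, 13.43 and 13.42 on PBS replicates 1, 2 and 3 and 12.54, 12.64 and 12.39 on mD1R replicates 1, 2 and 3 and a fall of 0.82 ± 0.17 (adjusted p = 0.0217). Its call was lost without PBS replicate 2 or 3 (adjusted p = 0.10 and 0.108) and without mD1R replicate 2 (0.0613), and held in 11 of 16 settings. Probe set 1418280_at also had no overlap, at 11.60, 11.83 and 11.64 with PBS and 11.40, 10.88 and 10.93 with mD1R (difference -0.62 ± 0.20, adjusted p = 0.0769), and passed with array weights (0.0187) and without mD1R replicate 1 (0.0390). The 3 others, 1433508_at, 1447448_s_at and 1459718_x_at, overlapped and differed by -0.37 ± 0.20, -0.23 ± 0.28 and -0.28 ± 0.28 (adjusted p = 0.263, 0.630 and 0.539). The 5 probe sets disagreed in size, and 1433508_at and 1447448_s_at were higher with mD1R within the first spike-in batch (0.03 and 0.35).

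Klf13, a regulator of T cell chemokine expression, had 2 kept probe sets, and neither passed. Probe set 1432543_a_at gave 10.90, 11.39 and 11.33 with PBS and 10.20, 10.64 and 10.55 with mD1R, without overlap, and its difference of -0.74 ± 0.21 had the smallest adjusted p among the members that did not pass (0.0547). It passed with the filter at the 60th percentile (adjusted p = 0.0436) and with array weights (0.0133). The other, 1436316_at, gave 11.31, 12.29 and 12.21 with PBS and 11.09, 11.79 and 11.81 with mD1R, with overlap (difference -0.38 ± 0.32, adjusted p = 0.465). Probe set 1456030_at lay below the filter, from 2.79 to 5.99 over all arrays.

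Klf10, a repressor induced by TGF-beta, gave 10.29, 10.47 and 10.79 on PBS replicates 1, 2 and 3 and 10.53, 11.03 and 10.27 on mD1R replicates 1, 2 and 3 on its only probe set, 1416029_at. The groups overlapped, the difference was 0.10 ± 0.24 (adjusted p = 0.829), and the interval ran from -0.47 to 0.66. Its sign differed between the spike-in batches (0.50 and -0.36).

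**Figure D3:**
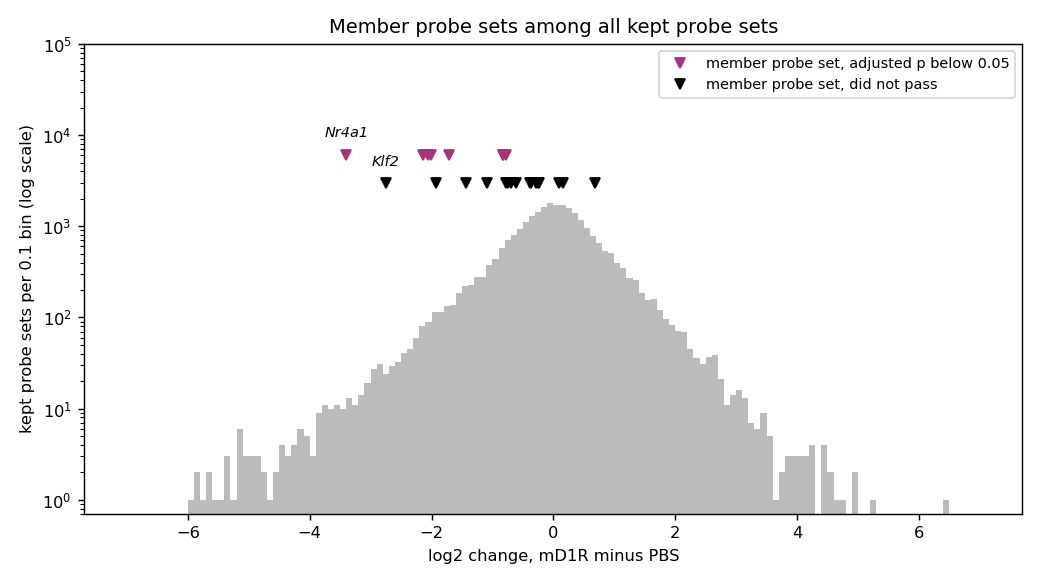
Histogram of the log2 changes (mD1R minus PBS) of 27022 kept probe sets, with a logarithmic count axis, and the 24 member probe sets as triangles above it. The member changes run from -3.40 for Nr4a1 to 0.69 for Nr4a3, and 21 of them lie below 0.

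The sizes of the changes were set against each other. Differences between 2 members within each array, each on its brightest kept probe set, were compared between the groups for all 36 pairs with an exact two-sided permutation test, for which 0.1 is the smallest p that 3 against 3 arrays allow. Of the 36 pairs, 22 reached it (adjusted p = 0.164 by Benjamini-Hochberg), so none passes 0.05 in this design. Each member enters several pairs, so the pairs are not independent. The matching share among pairs of other genes was not computed. The change of Nr4a1 minus that of Nr4a3 was -4.09 (log2), and minus that of Nr4a2 it was -1.68, with no overlap between the groups in either. For Klf4 it was -2.11 against Klf10 and -1.19 against Klf6, again without overlap. For Klf2 against Klf4 the difference of changes was -0.75, with overlap (exact permutation p = 0.5), and for Klf3 against Klf6 it was -0.01 (exact permutation p = 1).

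The order of the mD1R arrays also differed between members. Replicate 1 was the lowest for Klf2 and Nr4a1, whereas replicate 3 was the lowest for Klf4 on both probe sets. Replicate 2 was the highest mD1R array for Klf2, Klf4 and Nr4a1 alike. Among the 24 kept probe sets, 17 were lower with mD1R within both spike-in batches, with medians of -0.59 in the first and -0.79 in the second. The matching share over all kept probe sets was not computed. Both batch changes use the same arrays as the overall change, so they are not a separate check of it. The first batch has no other PBS array than replicate 1, and the second no other mD1R array than replicate 3.

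**Figure D4:**
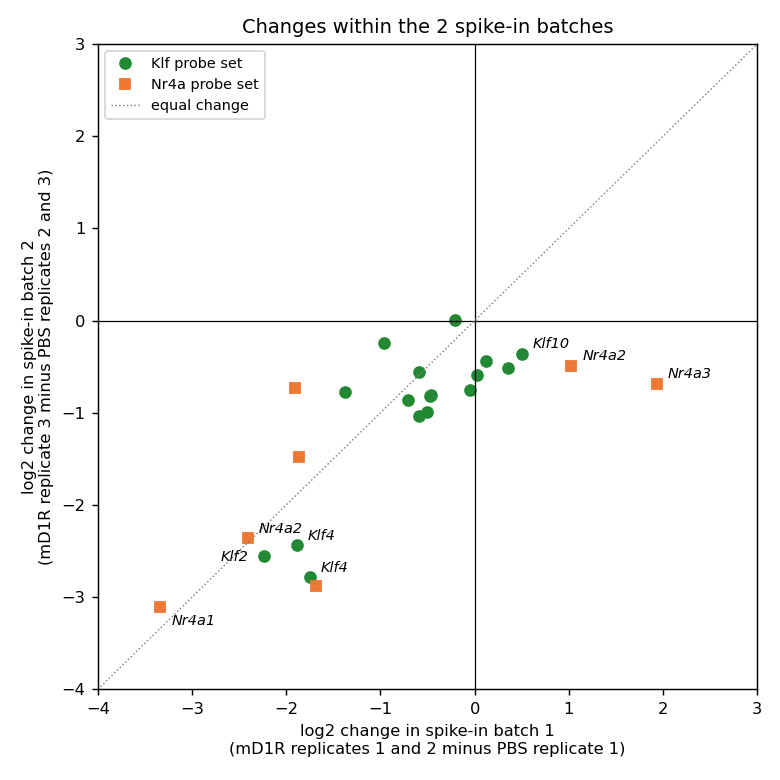
Log2 changes of the 24 kept probe sets within the spike-in batch of PBS replicate 1 (horizontal axis) and within that of mD1R replicate 3 (vertical axis), with a dotted line of equal change. Nr4a1, Klf2 and Klf4 lie below 0 on both axes, and the labelled points of Nr4a3, Klf10 and Nr4a2 on the right lie above 0 in the first batch and below 0 in the second, as do 3 unlabelled Klf points.

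The other genes of the pathways were described on the brightest kept probe set of each, where 7.09% of 12320 genes were lower and 8.49% higher at adjusted p 0.05. Of 8 measured genes of the rest of the Krüppel-like family, 1 fell and 0 rose. It was Klf5, a growth-promoting member, with 10.15, 10.64 and 10.75 with PBS and 6.18, 7.15 and 9.09 with mD1R (change -3.04 ± 0.64, adjusted p = 0.0244), which was lowest on mD1R replicate 1 and highest on replicate 3. A second Klf5 probe set gave -1.58 and did not pass (adjusted p = 0.0680). Klf1, Klf7, Klf9, Klf11, Klf14, Klf16 and Klf17 did not pass. Among the related Sp factors, 0 of 5 measured genes passed in either direction, and Sp1, which binds the same GC boxes, differed by -0.52 ± 0.16 (adjusted p = 0.0689). Of 7 measured co-repressor genes of the Krüppel-like factors 0 passed as well, with Ctbp1, the partner of Klf3, at -0.55 ± 0.16 (adjusted p = 0.0599). Their median changes were -0.52 and -0.25, beside 0.09 over all genes.

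Among 20 measured kinases and factors known to act upstream of Klf2 and the Nr4a genes, 2 fell and 2 rose (median 0.12). Crem, which encodes a CREB family member with repressor isoforms, had 7.79, 7.34 and 7.50 with PBS and 9.53, 8.99 and 8.51 with mD1R and rose by 1.47 ± 0.30 (adjusted p = 0.0219). Prkaca, a catalytic subunit of the cyclic AMP dependent kinase, rose by 0.96 ± 0.20. Srf, the factor that binds the CArG box, fell by 0.76 ± 0.19, but a second probe set gave 0.13 and did not pass, and Map3k3, a kinase at the head of the ERK5 pathway, fell by 0.77 ± 0.20. The MEF2 genes Mef2a, Mef2c and Mef2d differed by 0.15, 0.14 and 0.12 and Mapk7, which encodes ERK5, by 0.12, and none passed. Creb1 differed by -0.71 ± 0.20 (adjusted p = 0.0566).

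Partners of the Nr4a receptors gave 1 fall in 6 measured genes, the coactivator Ncoa1 (-0.68 ± 0.18), with a second probe set that did not pass (-0.63, adjusted p = 0.0774). The retinoid X receptor gene Rxra differed by 0.74 ± 0.28 and did not pass. Of 7 genes of the TGF-beta route to Klf10, Smad3, a signal transducer, fell by 1.44 ± 0.35 with 9.48, 9.75 and 9.86 with PBS and 7.50, 8.38 and 8.89 with mD1R, and the other 6 did not pass. Among 5 measured targets through which Klf2 is known to act on cell trafficking and vessels, Ccr7 rose by 1.51 ± 0.33 and 0 fell. S1pr1, the exit receptor that Klf2 activates in T cells, differed by 1.12 ± 0.46 (adjusted p = 0.151). The medians of these 3 lists were -0.34, -0.05 and 0.37.

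Of 26 measured genes of other immediate early families, 5 fell and 1 rose, with a median change of -0.43. Jun had 13.90, 14.28 and 14.22 with PBS and 12.35, 12.50 and 13.19 with mD1R and fell by 1.45 ± 0.25 (adjusted p = 0.0149), although it differed by only -0.03 on its other probe set. Fosb had 10.64, 11.11 and 10.95 with PBS and 7.14, 9.15 and 8.91 with mD1R and fell by 2.50 ± 0.49 (adjusted p = 0.0197), and Ier2 and Zfp36 fell by 1.74 ± 0.34 and 1.52 ± 0.31. The other calls were Dusp1, which fell by 1.10 ± 0.25, and Dusp6, a phosphatase that limits ERK, which rose by 0.81 ± 0.21. The change farthest from 0 in the list was that of Egr2, a zinc finger factor, with 7.28, 6.80 and 6.97 with PBS and 11.61, 12.27 and 7.87 with mD1R. It was higher on every mD1R array and did not pass (difference 3.56 ± 0.99, adjusted p = 0.0531). Egr3, Rgs1 and Ier3 differed by 1.70 ± 0.82, 1.42 ± 0.42 and 0.96 ± 0.31, and Btg2 and Dusp2 by -2.27 ± 0.63 and -1.35 ± 0.37. Fos differed by -0.54 ± 0.27 and Egr1 by -0.03 ± 0.49. None of these genes passed on the brightest probe set, but a second Btg2 probe set did (-2.30 ± 0.56, adjusted p = 0.0356). The list's mean log2 signal per array was 11.95 to 12.14 with PBS and 11.37 to 12.18 with mD1R, so it overlapped between the groups, with mD1R replicate 1 the lowest array, as it was for Nr4a1 and Klf2.

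Some markers of mature cells also differed between the groups, and their part in the results was not tested. Neutrophil markers ranged in mean log2 signal from 14.48 to 14.74 with PBS and 9.23 to 14.50 with mD1R, with 1 of 11 falling, Mmp9, and 0 rising. Lymphoid markers had means of 8.40 to 9.14 with PBS and 6.16 to 6.91 with mD1R, with 7 of 11 falling and 1 rising. The T cell gene Cd3d fell by 3.73 ± 0.34, the B cell factor Ebf1 fell by 2.92 ± 0.39, Dntt fell by 3.42 ± 0.46 and Klrd1 fell by 2.22 ± 0.40, while Il7r rose by 2.24 ± 0.45. Monocyte and macrophage markers had 11.66 to 11.70 with PBS and 12.41 to 13.15 with mD1R, with 5 of 10 rising and 0 falling, among them Ms4a7 (2.15 ± 0.21), Msr1 (2.29 ± 0.31), Cd68 (1.74 ± 0.27) and Adgre1 (1.82 ± 0.37). Not all went up. Ccr2 and Cx3cr1 differed by -1.37 ± 0.53 and -0.54 ± 0.28, Lyz2 by 0.00 ± 0.24. Mrc1 and Cd14 differed by 2.61 ± 1.02 and 1.23 ± 0.61, and none of these others passed. Mast cell markers had 7.62 to 8.44 with PBS and 10.35 to 11.62 with mD1R, with 7 of 9 rising, among them the protease genes Cpa3 (2.78 ± 0.26) and Cma1 (3.94 ± 0.55) and the IgE receptor genes Fcer1a (2.66 ± 0.45) and Ms4a2 (2.43 ± 0.42). Hdc went the other way, by -1.34 ± 0.55, and Tpsb2 differed by 2.49 ± 1.02, and neither passed. Megakaryocyte markers had 8.92 to 10.51 with PBS and 10.61 to 11.96 with mD1R, and Pf4 and Gp9 rose, of 6. Erythroid markers had 8.37 to 10.47 with PBS and 6.27 to 8.28 with mD1R, and Car1 and Slc4a1 fell, of 5. Stem and progenitor markers had 9.74 to 9.99 with PBS and 10.40 to 11.17 with mD1R, and of 7 measured Cd34 and Procr rose and Flt3 fell. Of these 7 only Kit defines the sort gate, and it did not pass (difference 1.35 ± 0.49, adjusted p = 0.109). Endothelial markers had 7.03 to 7.70 with PBS and 8.01 to 8.47 with mD1R over 5 measured genes, of which 1 rose, Pecam1, while the defining genes Cdh5, Tek, Tie1 and Emcn lay below the filter. None of these lists had a measured marker at 0 on every array of a group.

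For each member the nearest other gene was taken as the one whose 6 log2 signals, centred on their own mean, differed least by root mean square. Genes with Riken, Gm, LOC or similar clone-type symbols were passed over. These were Neurl1b for Klf2 (0.49), Kif14 for Klf4 (0.19), Igll1 for Nr4a1 (0.41) and Gimap7 for Nr4a2 (0.14). For the smaller changes they were Naa60 for Klf3 (0.04), Tmem50b for Klf6 (0.07), Map10 for Klf10 (0.07), Lcp1 for Klf13 (0.09) and Malt1 for Nr4a3 (0.30). The distances are in log2 units over 6 arrays of 2 groups, among the 12320 genes less those passed over, and carry no test. On the brightest kept probe sets used here, the members with the widest spread among mD1R arrays, Klf2 and Nr4a1, had the most distant nearest genes.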

How the data were processed

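The authors deposited log2 signals per array for 45101 probe sets, 64 of them controls. The tool was MAS5 per the submitters' processing notes, which state no version. After undoing the log, the 2% trimmed mean was 500.0 on every array, so each array had been scaled alone, and linear values under 1 are listed as log2 0. Detection calls were not used here, and MAS5 subtracts mismatch signals, so low values are noisy. Of the probe sets other than controls, 34945 had 1 gene symbol, 932 several and 9160 none in the platform annotation.

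The groups, 3 arrays each, were compared on the deposited values by limma's two-sided moderated test with a trended variance (version 3.58.1, R 4.3.3). Probe sets below the 40th percentile of mean log2 signal, 5.27, were left out, which kept 27022. Benjamini-Hochberg adjustment ran over all of these, with a threshold of 0.05. Each ± beside a log2 change is a standard error from limma. The number of arrays limits the precision. Elsewhere a gene stands for its brightest kept probe set. Named genes are all members, the genes of each list past the threshold (at most 4, by smallest p) and the gene nearest in pattern to each member. Second probe sets, genes that did not pass, Dusp1, Dusp6 and Il7r fall outside this rule and were chosen after their values were seen. The members and lists were chosen with earlier results of these data known, and so was the spike-in batch. The test was checked on simulated data. The alternatives covered scaling, pseudocount, filter, variance model, array weights, blocks, threshold and leaving out each array.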

Additional observations from a re-analysis of the deposited data

How the results depend on the processing

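The count of probe sets past the threshold, 3413, was 108 at adjusted p 0.01, 5737 at 0.10, 6508 with array weights, 2213 with no variance trend, and between 0 (without PBS replicate 3, with 5853 at unadjusted p under 0.05) and 5554 (without mD1R replicate 3) when 1 array was left out. Without PBS replicates 1 and 2 it was 1301 and 535, and without mD1R replicates 1 and 2 it was 2173 and 687. Of the member probe sets, 8 were lower, against 0 at adjusted p 0.01, 13 at 0.10, 13 with array weights, 5 with arrays centred on their medians, 5 with no variance trend, and 0 to 10 when 1 array was left out, with 3 without PBS replicate 1 and 5 without mD1R replicate 2. Leaving out PBS replicate 2 or 3 gave the 0, and there limma's unadjusted p was under 0.05 for 11 and 13 of them. Among all 27022 kept probe sets it was so for 6055 and 5853, in either direction. Members higher past the adjusted threshold numbered 0 in each setting. Without mD1R replicate 3, 1 member probe set was higher at limma's unadjusted p under 0.05. The sign turned for Nr4a2 1433422_at with array weights (-0.0587; -0.21 to 0.49 when 1 array was left out) and for Klf10 (-0.11 to 0.27 when 1 array was left out), neither of which passed. The cause was not tested. The 8 member probe sets that passed kept their sign in each setting in which they were tested.

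Same-numbered arrays did not all deviate together from their group means (r = 0.31, 0.03 and 0.13 across probe sets), and not each array correlated best with its own number, so the numbers were not taken as pairs. With the replicate number as a block, 4619 probe sets and 11 member probe sets passed. The 3 gained were Klf2 (adjusted p = 0.0106), Klf13 1432543_a_at (0.0272) and Klf3 1429360_at (0.0457). A limma fit that instead allowed for the spike-in batches passed 7 member probe sets. There the call of Klf3 1421604_a_at was lost (adjusted p = 0.0535), and none of the 3 gained above passed. Klf2 changed by -2.40 (adjusted p = 0.124) in that fit. Klf13 1432543_a_at and Klf3 1429360_at had adjusted p = 0.0706 and 0.0708. Signal near background limits the dim Nr4a2 and Nr4a3 probe sets most.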
